A study of Mus musculus with 6 samples.

Results

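The genes described were the nuclear-encoded subunits of oxidative phosphorylation, measured as mRNA in the prefrontal cortex of aged mice. They were chosen by name only: protein-coding symbols of the Nduf, Sdh, Uqcr, Cox4 to Cox8 and Atp5 families plus Cyc1, without the assembly factors named Ndufaf. The rule found 82 of the 21006 genes listed in the deposited values. Of these, 36 were counted in complex I, 4 in complex II, 9 in complex III, 16 in complex IV and 17 in complex V. Ndufa4 was counted in complex IV, where its protein is now placed, and its relative Ndufa4l2 stayed in complex I because the grouping went by symbol. Cox7a1, Cox8b, Cox8c and another identifier named Atp5o were not analysed here.

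All mice were male wild-type C57BL/6 animals labelled as 18 months old, although the sample titles carry the code 17M. Mice of the PND group (postoperative neurocognitive disorder, n = 3) had isoflurane anesthesia with exploratory laparotomy, an operation in which the abdomen is opened and inspected. Mice of the control group (CON, n = 3) had no operation and no anesthesia before the tests, so an effect of the drug and an effect of the surgery cannot be told apart. The operated mice also had lidocaine cream and povidone iodine on the wound. All mice had been trained with foot shocks in a fear conditioning test. In both groups the brain was collected after testing in the Barnes maze, a task of spatial memory, days after the operation. All mice, controls included, were deeply anesthetized with isoflurane just before collection. The 3 mice of each group were a random choice from a larger group, and the brains were perfused with saline. Each mouse gave 1 library of total RNA without ribosomal RNA, and values are FPKM, fragments counted per kilobase of exon and scaled to the depth of the library. All 10 neuron markers checked (Rbfox3, Snap25, Syt1 and others) were detected, with a summed level of 923 to 1030 FPKM in PND and 988 to 1040 FPKM in CON.

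Oxidative phosphorylation turns the energy of food into ATP at the inner mitochondrial membrane. Complex I takes electrons from NADH and complex II takes them from succinate; both pass them by ubiquinone to complex III, and cytochrome c carries them on to complex IV, which reduces oxygen. Complexes I, III and IV pump protons, and the proton gradient drives complex V, the ATP synthase. Neurons depend on this supply for ion pumping and synaptic transmission. A few subunits are encoded in mitochondrial DNA and the remainder in the nucleus, so both genomes have to be expressed to build complexes I, III, IV and V. Several nuclear subunits have tissue-specific forms made from separate genes.

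Of the 82 members, 81 had a mean of at least 0.1 FPKM over the 6 samples and were tested. Their mean levels ran from 0.153 FPKM for Cox7b2 to 129 FPKM for Cox6b1, with a median of 7.17 FPKM against 2.44 FPKM for all genes tested. A mean of 10 FPKM or more was reached by 35 members, and 8 members lay under 1 FPKM. The highest means after Cox6b1, a subunit of complex IV that faces the intermembrane space, were 61.3 FPKM for Uqcrb of complex III, 58.7 FPKM for Sdha of complex II, 55.7 FPKM for Atp5a1 of complex V and 48.4 FPKM for Ndufb9 of complex I. Subunits of 1 complex thus differed widely in mRNA: within complex I, leaving out Ndufa4l2 (0.448 FPKM), the means ran from 0.628 FPKM (Ndufa11) to 48.4 FPKM. Only Cox6b2, the testis form of Cox6b, failed the filter. It was listed at 0 in 5 samples and at 0.131 FPKM in CON replicate 2.

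**Figure D1:**
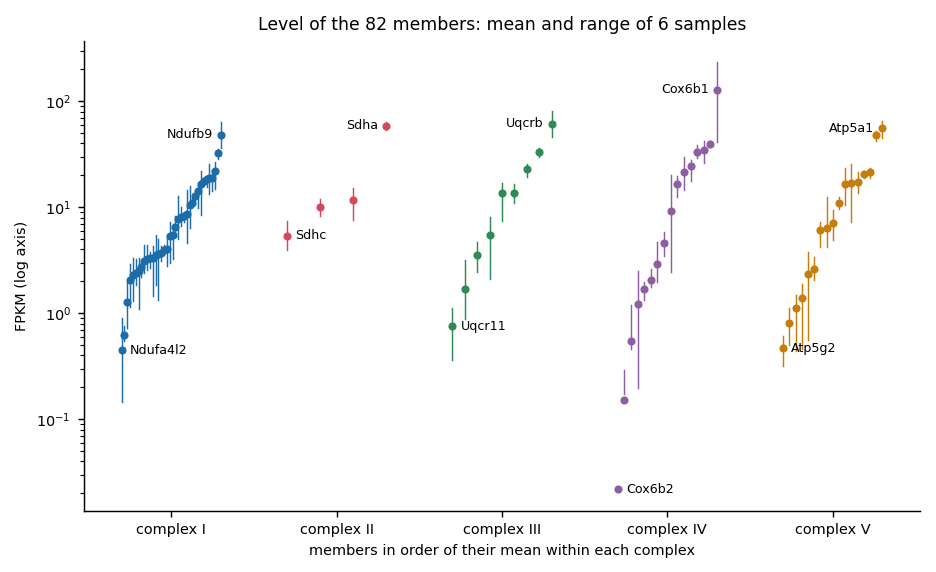
Mean FPKM over the 6 samples (points, log axis) of each of the 82 members, ordered within each complex, with a line from the lowest to the highest sample above 0. The means span 0.153 FPKM (Cox7b2) to 129 FPKM (Cox6b1) among the members tested, and Cox6b2 lies below them.

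Some of these levels are uncertain because of how fragments are assigned. For 20 members at least 80% of the coding sequence had a match of at least 95% identity in another annotated gene, which for 18 of them included a pseudogene, and fragments from such stretches can be assigned to either gene. These 20 members had a median level of 5.14 FPKM, against 7.83 FPKM for the 61 others tested. Uqcrb, Ndufs3, Cox6c, Cox7b, Cox7c, Atp5g1, Atp5g2 and Atp5l were among them, so their values are uncertain. Exons of 26 members overlapped another gene on the opposite strand and those of 5 members overlapped one on the same strand, and whether strand was used in counting is not given in the sources used here.

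Promoter windows from RefSeq (GRCm38.p6, 250 bases before to 50 bases after a start) were read to see what the members share beyond their names, since the regulators NRF1, GABPA and YY1 are known for binding promoters of respiratory chain genes. A window was found for 66 members. Those without one included Atp5a1, Atp5mpl, Cox4i1, Cox4i2, Cox6a2, Cox6c, Cyc1, Ndufa2, Ndufa4l2, Ndufb9, Ndufs1, Sdhc, Uqcrb, Uqcrc2 and Uqcrq. A short word for each regulator was searched on both strands. The NRF1 word GCATGCGC stood in 10 of 66 member windows (15.2%) and in 3.05% of the 27025 genes with a window. The GABPA word CCGGAAG stood in 16 member windows (24.2%) and in 9.93% of all. The YY1 word AAGATGGC stood in 10 member windows (15.2%) and in 3.19% of all, with 7 of 31 windows in complex I (22.6%), 3 of 15 in complex V and none in the other complexes. At least 1 of the words was found in 30 members (45.5%) and in 14.9% of all genes. The member windows were also richer in G and C, with a median of 58.3% against 52.8%, and these shares were not adjusted for that. A match describes the letters only, and binding was not measured.

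Stretches of 90 bases upstream of a start in 4 members give examples of these words, with each match in capitals. Only matches lying wholly before a start were considered for them. That of Sdhb (chr4:140961176-140961265, + strand) holds the NRF1 word, 54 bases before the start. That of Ndufa11 (chr17:56717661-56717750, + strand) holds the same word on both strands, where the copies overlap. That of Cox6b1 (chr7:30626115-30626204, - strand), the member with the highest mean, holds the GABPA word in reverse complement, 28 bases before the start. That of Atp5j (chr16:84834990-84835079, - strand) holds the YY1 and GABPA words, and its gene overlaps Gabpa on the other strand. Atp5j was the only member with a YY1 word wholly before a start, so it is not typical of the YY1 matches counted above.
Sdhb: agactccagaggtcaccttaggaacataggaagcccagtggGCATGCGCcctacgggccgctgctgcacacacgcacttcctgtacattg
Ndufa11: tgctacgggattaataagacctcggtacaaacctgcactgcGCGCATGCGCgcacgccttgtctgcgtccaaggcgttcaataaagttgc
Cox6b1: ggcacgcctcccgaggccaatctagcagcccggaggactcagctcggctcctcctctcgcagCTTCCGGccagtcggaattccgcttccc
Atp5j: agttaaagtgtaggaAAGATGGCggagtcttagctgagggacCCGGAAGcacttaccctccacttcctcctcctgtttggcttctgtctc

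The comparison of PND with CON asked whether mRNA of the respiratory chain differs after anesthesia and surgery. No member was called. The study's cut-off (more than 2-fold and unadjusted p below 0.05) was passed by 0 of 81 members in either direction, where it was passed upward by 0.841% and downward by 0.484% of the 18185 genes tested. An adjusted p below 0.05 was reached by 0 members and by 0.011% of all genes. At an unadjusted p below 0.05, 1 member (1.23%), Ndufb9, was higher in PND and 0 were lower, with 1.73% and 1.4% of all genes. The median log2 fold change was 0.01 over the members and 0.012 over all genes tested. Of the members, 44 lay above 0 and 37 below.

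The intervals of these differences show how far they were limited by 3 animals a group. The 95% interval of the fold change lay within 2-fold either way for 57 of 81 members (70.4%, against 61.5% of all genes) and within 1.5-fold for 27 members (33.3%, against 30.8%). For the remaining 24 members a 2-fold difference was not excluded by the interval. Values of all PND samples lay above all CON samples in 3 members, Cox4i2, Ndufs4 and Ndufv2 (3.7%), and in 3.78% of all genes. They lay below in 1 member, Ndufb2 (1.23%), and in 3.88% of all genes. The separation of Cox4i2 and Ndufs4 was lost with quantile normalization and with the GC and length corrections, that of Ndufs4 also with median centring and with scaling to nuclear genes, and that of Ndufv2 with median centring and the length correction. In whole tissue, fewer cells of a type and less RNA per cell cannot be told apart. In the plot of fold changes each complex had members on both sides of 0. Complexes I to V had median log2 fold changes of 0.052, 0.044, 0.004, −0.046 and −0.005. When 1 sample was left out, these medians ran from −0.12 (complex IV without PND replicate 3) to 0.17 (complex II without CON replicate 2). Each changed sign in some of these fits, such as complex IV with 0.09 without PND replicate 2.

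**Figure D2:**
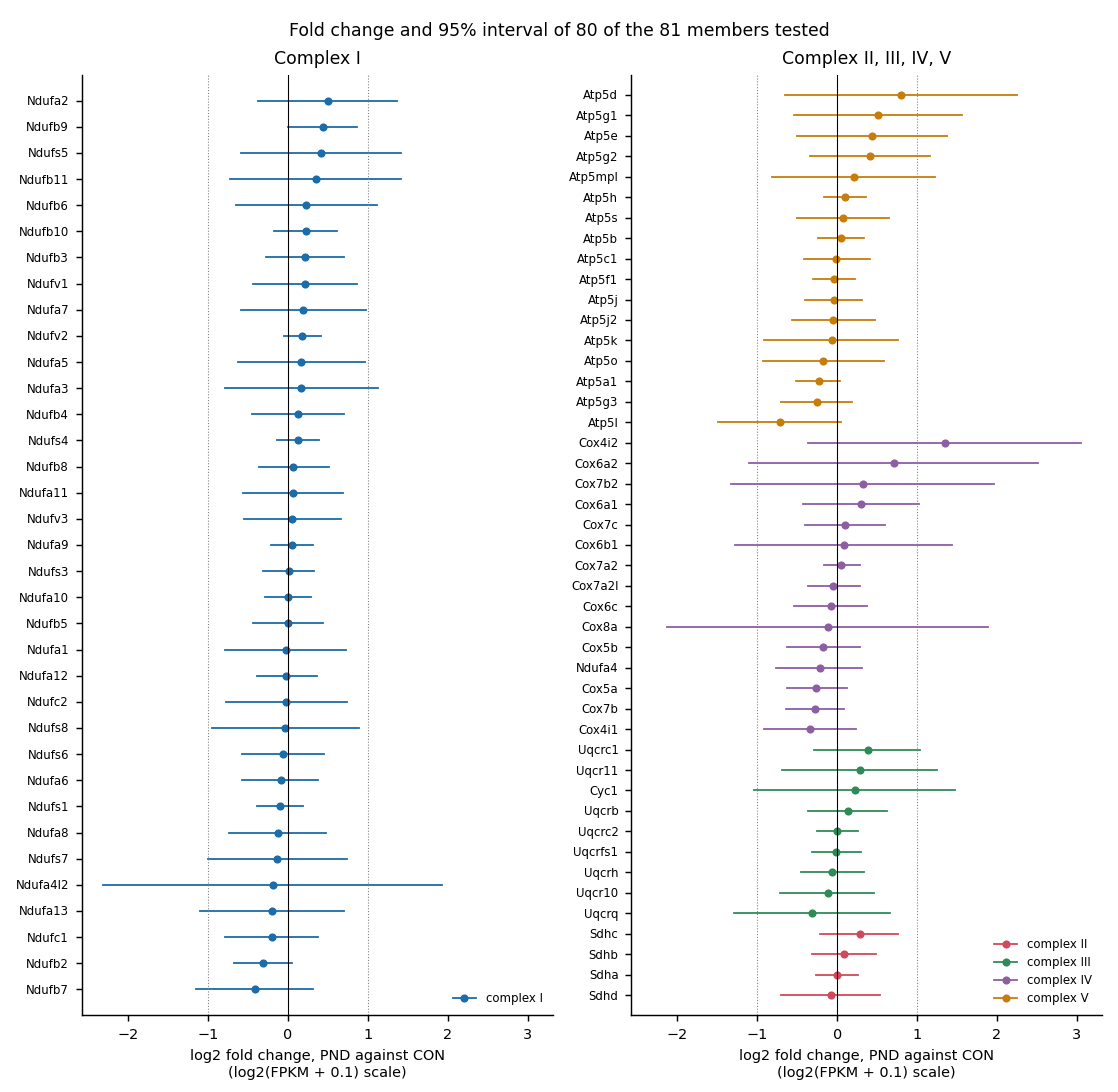
Log2 fold change of PND against CON (points) with its 95% interval (lines) for 80 of the 81 members tested, by complex, on the log2(FPKM + 0.1) scale, with dotted lines at 2-fold. The points lie on both sides of 0 and most intervals stay between the dotted lines (57 of all 81 members).

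Complex I had the 1 member with an unadjusted p below 0.05. Ndufb9, an accessory subunit of the membrane arm (ENSMUSG00000022354, chr15:58933756-58939488, + strand, GRCm38), measured 57.5, 45.7 and 63.6 FPKM in PND replicates 1 to 3. It measured 35.9, 51.8 and 36.1 FPKM in CON replicates 1 to 3. CON replicate 2 lay above PND replicate 2, so the groups overlapped. The means were 55.6 ± 9.14 FPKM for PND against 41.3 ± 9.16 FPKM for CON (SD, n = 3 each). The log2 fold change was 0.44 (SE 0.19, adjusted p = 1.0 over all genes). The unadjusted p was 0.0496 in limma, and an exact two-sided permutation test of this gene gave p = 0.2, where 3 against 3 samples cannot go below 0.1. Under the alternatives the limma p ran from 0.00694 without CON replicate 2 to 0.159 without PND replicate 3, and it was above 0.05 in several of them. Part of its coding sequence (37.6%) was matched elsewhere, and its exons overlapped Gm49356 on the same strand.

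Ndufb2, another accessory subunit of the membrane arm, measured 2.67, 3.11 and 3.05 FPKM in PND against 3.53, 3.81 and 3.69 FPKM in CON. All 3 CON samples were higher, and the log2 fold change was −0.31 (SE 0.15, adjusted p = 1.0). Its exons overlapped Gm42420 on the same strand and Braf on the other, so the source of these fragments is uncertain. Ndufv2, which carries an iron-sulfur cluster in the NADH-oxidizing tip, measured 35.3, 33.9 and 35.2 FPKM in PND. It measured 31.6, 28.5 and 32.3 FPKM in CON, below every PND sample, with a log2 fold change of 0.18 (SE 0.10, adjusted p = 1.0). Ndufs4, an accessory subunit beside that tip and named here because its groups did not overlap, averaged 19.1 ± 0.421 FPKM in PND against 17.6 ± 1.71 FPKM for CON (SD, n = 3 each). These separations were small in size, and the interval of Ndufv2 ran from −0.05 to 0.41 on the log2 scale.

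The 7 nuclear core subunits, which hold the flavin and the iron-sulfur clusters, had a median log2 fold change of 0.01. In the NADH-oxidizing module, Ndufv1, which binds NADH and the flavin, had a log2 fold change of 0.21 (SE 0.28). It measured 4.36, 3.32 and 5.34 FPKM in PND and 2.79, 5.24 and 3.34 FPKM in CON, so the groups overlapped. Ndufs1, the largest subunit, had −0.10 (SE 0.12), with 10.7 to 13.0 FPKM in PND and 12.7 to 13.4 FPKM in CON. In the module that passes electrons to ubiquinone, Ndufs3, Ndufs7 and Ndufs8 had log2 fold changes of 0.01, −0.13 and −0.03. Their precision differed: the 95% interval of Ndufs3 ran from −0.31 to 0.33, that of Ndufs7 from −1.0 to 0.74 and that of Ndufs8 from −0.95 to 0.89. Ndufs8 measured 20.4, 10.9 and 16.4 FPKM in PND and 8.45, 21.8 and 20.9 FPKM in CON, a wider range among the controls than between the groups. Ndufb3, the third most abundant member of complex I after Ndufb9 and Ndufv2, had a log2 fold change of 0.22 (SE 0.21). That value was 0.0 without CON replicate 1 and 0.4 without CON replicate 3.

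Complex II, which is also an enzyme of the tricarboxylic acid cycle, had the smallest median SD within groups of the 5 complexes, 0.25 on the log2 scale, against 0.284 to 0.342 in the others. Sdha, the flavin subunit that oxidizes succinate, measured 58.2, 53.7 and 64.2 FPKM in PND. It measured 53.2, 62.3 and 60.3 FPKM in CON. The groups covered the same range, and the 95% interval of the log2 difference was −0.26 to 0.26. Sdhb, the iron-sulfur subunit, had a log2 fold change of 0.09 (SE 0.17). The membrane anchors Sdhc and Sdhd had 0.28 (SE 0.21) and −0.08 (SE 0.27), and Sdhd ranged from 7.57 FPKM in CON replicate 1 to 15.2 FPKM in CON replicate 2.

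In complex III the core protein Uqcrc2 and the Rieske iron-sulfur protein Uqcrfs1 were held within narrow limits. Their log2 fold changes were 0.00 and −0.01, with intervals of −0.25 to 0.26 and −0.32 to 0.30. The other core protein, Uqcrc1, measured 16.4, 11.6 and 17.1 FPKM in PND and 7.49, 15.6 and 12.6 FPKM in CON. The difference of 0.38 on the log2 scale (SE 0.28, adjusted p = 1.0) went with a low value in CON replicate 1, and it was 0.08 without that sample. Uqcrb, a small subunit near the ubiquinone site, went the other way in that sample: it measured 81.4 FPKM in CON replicate 1 but 46.4 and 50.6 FPKM in CON replicates 2 and 3, and 58.0, 66.7 and 64.9 FPKM in PND. Uqcrq and Uqcr11, small accessory subunits, had log2 fold changes of −0.31 (SE 0.42) and 0.28 (SE 0.41), and both changed sign when 1 sample was left out: that of Uqcrq was 0.08 without CON replicate 2 and that of Uqcr11 −0.06 without CON replicate 1.

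Complex IV held both the narrowest and the widest range among the members detected in every sample. Cox6b1 measured 123, 83.1 and 152 FPKM in PND and 41.5, 234 and 137 FPKM in CON. The lowest and the highest sample were both controls, 5.65-fold apart, and the 95% interval of the log2 difference between groups was −1.28 to 1.44. Cox8a, the ubiquitous form of subunit 8, measured 5.6, 2.78 and 17.6 FPKM in PND and 2.45, 20.3 and 7.14 FPKM in CON, an 8.28-fold range. Cox7a2 stood at the other end: it measured 41.5, 38.7 and 41.7 FPKM in PND and 38.6, 41.5 and 37.4 FPKM in CON, a 1.11-fold range. Its interval was −0.17 to 0.28. Cox6c, the third in abundance, and Cox7a2l, which takes part in joining complexes III and IV, had log2 fold changes of −0.08 (SE 0.19) and −0.05 (SE 0.14). Cox5a had −0.26 (SE 0.16) and Cox7b −0.28 (SE 0.15), and neither passed the test.

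The tissue forms of complex IV subunits kept to 1 main gene, except for subunit 6a. Cox4i1 measured 14.5, 18.2 and 24.0 FPKM in PND and 17.3, 29.7 and 25.3 FPKM in CON. Cox4i2, the form known from lung and from low oxygen, measured 0.583, 1.2 and 0.55 FPKM in PND and 0.459, 0.528 and 0 FPKM in CON. It made up 2.24% to 6.18% of the summed FPKM of both genes in PND and 0% to 2.58% in CON. All PND samples were above the controls, but the values stood for an estimated 0 to 7.4 fragments a sample, and the log2 fold change of 1.35 (SE 0.73) had an interval of −0.36 to 3.05. It was 0.49 without CON replicate 3, the sample at 0, and 0.42 and 2.44 when 1 and 0.01 were added before the log. Cox7b2, the testis form, made up at most 1.89% of the sum with Cox7b.

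Cox6a2, known as the heart and skeletal muscle form and also found in some interneurons, took 24.2%, 32.6% and 28.8% of the sum with Cox6a1 in PND. In CON it took 7.08%, 45.0% and 23.6%, so the controls spanned the PND values. Its own level ran from 0.196 FPKM in CON replicate 1 to 2.53 FPKM in CON replicate 2, a 12.9-fold range resting on an estimated 1 to 14 fragments. Some markers of other cell types varied between the same samples. Of the 6 parvalbumin interneuron markers, Pvalb measured 2.21 FPKM in CON replicate 1 and 10.3 FPKM in CON replicate 2, while Tac1 (14.2 and 5.51 FPKM) and Erbb4 (27.7 and 26.3 FPKM) went the other way, and the median log2 deviation of the list was −0.20 and 0.28. Microglia markers moved more, with −0.49 and 0.53, though P2ry12 (10.7 and 9.47 FPKM) went the other way. With the GC correction the median SD within groups of the microglia list fell from 0.642 to 0.422 on the log2 scale. Of 10 muscle markers 7 were listed and 3 had enough signal to be tested (Acta1, Myh7 and Mylpf). The summed levels of those listed were only 1.16 to 1.99 FPKM in PND and 0.883 to 2.06 FPKM in CON. Acta1 and Myh7 were lower in CON replicate 1 (0 and 0.651 FPKM) than in CON replicate 2 (0.599 and 1.15 FPKM), and Mylpf had 0.152 and 0.209 FPKM. The part of these cell types in the values of Cox6a2 was not tested.

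In complex V the 5 subunits of the catalytic head had a median SD within groups of 0.244 on the log2 scale, against 0.322 for the other 12 members. The head was not uniformly steady: the SD ran from 0.14 for Atp5a1 to 0.99 for Atp5d, the largest of complex V, with 0.57 for Atp5e. Atp5a1, the alpha subunit, measured 57.7, 45.1 and 50.9 FPKM in PND and 58.6, 64.5 and 57.3 FPKM in CON. PND replicates 2 and 3 were below all controls and PND replicate 1 was not, and the log2 fold change was −0.23 (SE 0.12, adjusted p = 1.0). Leaving out PND replicate 1 gave −0.32, and leaving out PND replicate 2 gave −0.15. Atp5b, the catalytic beta subunit, had a log2 fold change of 0.05 with an interval of −0.24 to 0.33. Atp5h, subunit d of the stalk, had 0.10 (SE 0.11). Atp5l, subunit g in the membrane, measured 4.2, 4.21 and 5.21 FPKM in PND and 4.7, 7.2 and 12.5 FPKM in CON. CON replicate 1 lay within the PND values, and the log2 fold change was −0.72 (SE 0.33, adjusted p = 1.0). It was −0.36 without CON replicate 3 and −1.06 without CON replicate 1. The whole coding sequence of Atp5l was matched in 9 other annotated genes, 8 of them pseudogenes.

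Subunit c, which forms the rotating ring in the membrane, is encoded by 3 nuclear genes for the same mature protein. Their sum was 7.89, 6.31 and 8.82 FPKM in PND and 6.7, 9.39 and 8.39 FPKM in CON. Atp5g3 gave most of it in every sample, 67.0% to 77.2% in PND and 77.1% to 88.4% in CON. Atp5g1 gave 17.4% to 23.5% in PND and 17.3% to 18.6% in CON replicates 2 and 3, but 6.91% in CON replicate 1. Atp5g2 gave 3.93% to 9.49%. The log2 fold changes were −0.25 (SE 0.19) for Atp5g3, 0.51 (SE 0.45) for Atp5g1 and 0.41 (SE 0.32) for Atp5g2, and none passed the test. Single samples decided some of these values: that of Atp5g3 was −0.07 without PND replicate 2, and that of Atp5g1 −0.02 without CON replicate 1.

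**Figure D3:**
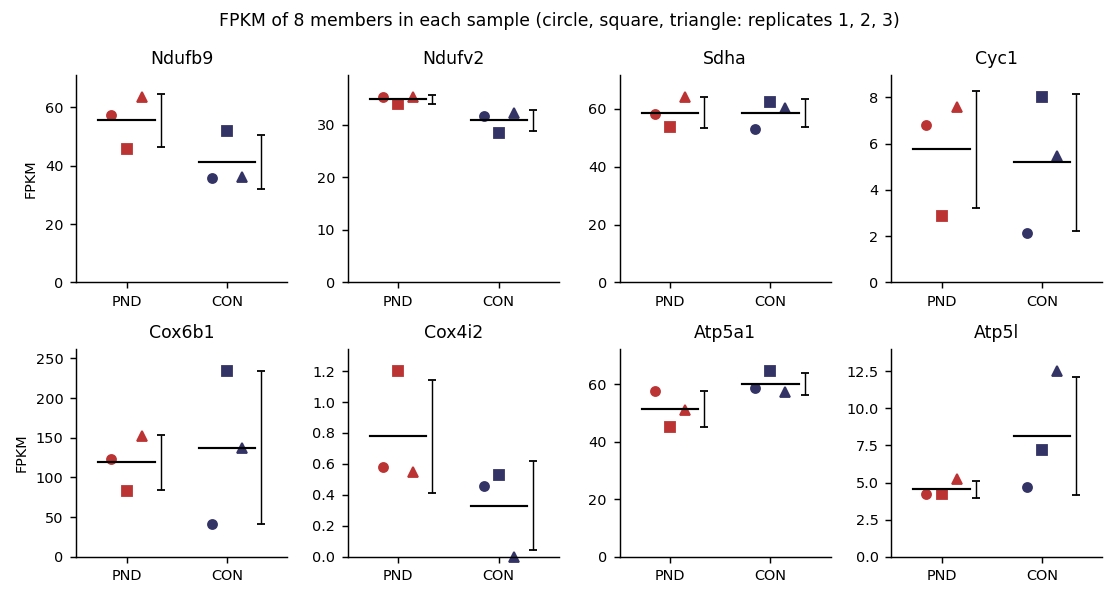
FPKM of 8 members in each sample, with the mean of each group (horizontal line) and its SD (bar, n = 3). Ndufv2 and Cox4i2 separate the groups in these values, though not after a length correction, Sdha does not, and Cyc1 and Cox6b1 vary more among the controls than between groups, with Cox6b1 at 41.5 to 234 FPKM in CON.

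Many members moved together between animals of the same group. The median log2 deviation of the members from their gene means was 0.03, −0.15 and 0.20 in PND replicates 1 to 3 and −0.11, 0.17 and 0.02 in CON replicates 1 to 3. The same medians over all genes tested lay between −0.05 and 0.06. PND replicate 3 was above the gene mean in 67 of 81 members and PND replicate 2 below it in 60. CON replicate 2 exceeded CON replicate 1 in 59 members (72.8%, against 53.8% of all genes) with a median log2 difference of 0.29, against 0.07 for all genes. PND replicate 3 exceeded PND replicate 2 in 68 members (84.0%, against 57.6%) with a median of 0.33, against 0.09.

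**Figure D4:**
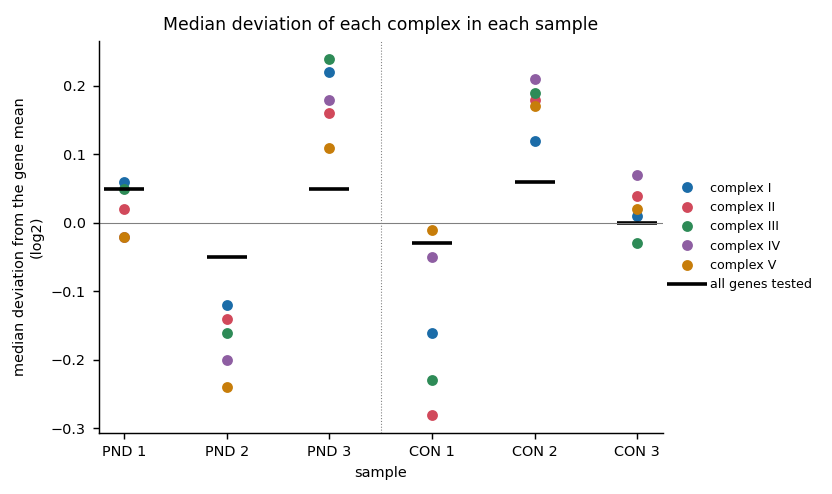
Median log2 deviation from the gene mean of the members of each complex (points) and of all genes tested (black bars) in each sample. Every complex lies below 0 in PND replicate 2 and CON replicate 1 and above 0 in PND replicate 3 and CON replicate 2, so the order follows the samples rather than the groups.

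The summed level of the members was 1140, 986.3 and 1261 FPKM in PND and 971.1, 1311 and 1151 FPKM in CON. PND replicate 3 and CON replicate 2 were again the highest, and PND replicate 2 and CON replicate 1 the lowest. Mitochondrially encoded genes took 30.4% to 38.8% of all FPKM, so the members were also set against nuclear genes alone, of which they took 0.76%, 0.671% and 0.841% in PND and 0.652%, 0.87% and 0.777% in CON. The depth, estimated from steps in the low values, was 7180000 to 9382650 fragments a sample.

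The size of these shifts differed with the base composition of the genes. Across the 81 members, which share libraries and depth within a sample, Spearman's rho between GC content of the transcript and the deviation was 0.17, −0.23 and 0.45 in PND replicates 1 to 3 and −0.38, 0.55 and −0.31 in CON replicates 1 to 3. Over all genes tested the values were 0.14, −0.35, 0.47, −0.52, 0.45 and −0.08 in the same order. With exon length the members' rho was −0.39 in PND replicate 3 (−0.09 over all genes) and between −0.05 and 0.09 in the other samples, so in PND replicate 3 the deviation went with length as well. The 16 members with the highest GC content, above 54.7%, had median deviations of −0.26 in PND replicate 2 and 0.40 in PND replicate 3, and of −0.44 in CON replicate 1 and 0.50 in CON replicate 2. All genes of that GC range had −0.26, 0.34, −0.48 and 0.42 in these samples. The 10 members with the lowest GC content, up to 42.7%, had 0.13 in CON replicate 1 and −0.15 in CON replicate 2, the opposite order, as did all genes of that range (0.18 and −0.12). In the PND samples they kept the order of the GC-rich members, with −0.16 in PND replicate 2 and 0.07 in PND replicate 3, while all genes of that range had 0.07 and −0.12. The difference between the PND samples was thus not limited to GC-rich members. For the members above 54.7% the highest sample was a median 2.41-fold above their lowest, against 1.34-fold to 1.71-fold in members of lower GC content, taken in 4 ranges. Members had a median GC content of 50.2% and a median exon length of 1587 bases, against 48.4% and 3783 bases for all genes tested.

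**Figure D5:**
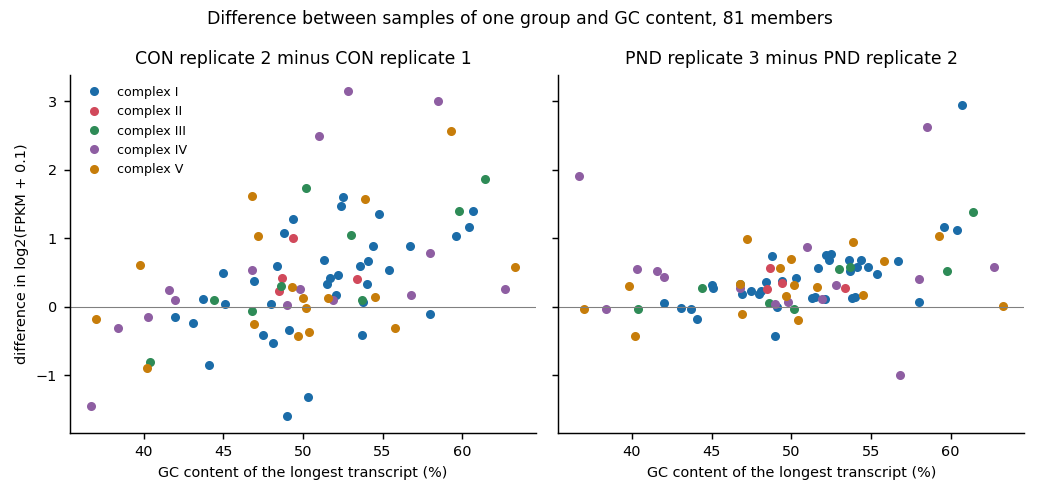
Difference in log2(FPKM + 0.1) between a pair of samples of the same group against the GC content (%) of the longest transcript, for the 81 members tested. Points rise from left to right for CON replicate 2 minus CON replicate 1 (median difference 0.29) and lie mostly above 0 for PND replicate 3 minus PND replicate 2 (median 0.33).

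To show the letters behind these percentages, subunits of high and of low GC content were set side by side, chosen after their values were seen and so no evidence of a relation. Cyc1, the cytochrome c1 that hands electrons to cytochrome c, measured 2.12 FPKM in CON replicate 1 and 8.02 FPKM in CON replicate 2, while Uqcrb measured 81.4 and 46.4 FPKM. Cox8a measured 2.45 and 20.3 FPKM in these samples, while Cox7b measured 18.4 and 19.7 FPKM. The first 90 bases of the coding sequences (GENCODE M21 on GRCm38, on chromosomes 15, 13, 19 and X) are shown with G and C in capitals. These letters make up 68 of the 90 bases in Cyc1 and 41 in Uqcrb, and 63 in Cox8a and 48 in Cox7b. Over the whole coding sequence the shares are 59.2%, 42.9%, 65.2% and 47.5%. By the GC content of the whole transcript, which was 61.4% in Cyc1 and 58.5% in Cox8a, other members did not follow this order: Cox6a1 (62.7%) was 1.2-fold higher in CON replicate 2 than in CON replicate 1, and Cox6b1 (51.0%) 5.65-fold.
Cyc1: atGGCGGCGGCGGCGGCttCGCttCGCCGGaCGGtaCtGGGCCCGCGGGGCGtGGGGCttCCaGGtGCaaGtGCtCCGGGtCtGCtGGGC
Uqcrb: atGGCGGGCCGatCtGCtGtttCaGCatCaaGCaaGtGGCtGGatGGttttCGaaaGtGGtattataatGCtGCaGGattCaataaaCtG
Cox8a: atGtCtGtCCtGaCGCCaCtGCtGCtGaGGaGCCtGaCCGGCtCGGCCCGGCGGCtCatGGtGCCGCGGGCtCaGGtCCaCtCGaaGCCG
Cox7b: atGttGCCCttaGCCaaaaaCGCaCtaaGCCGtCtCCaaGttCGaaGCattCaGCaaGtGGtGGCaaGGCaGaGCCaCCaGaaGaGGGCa

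With the dependence on GC content removed within each sample, the median SD within groups fell from 0.324 to 0.26 on the log2 scale over the members and from 0.32 to 0.268 over all genes. The SD became smaller in 48 of 81 members (59.3%, against 64.2% of all genes). Ndufb9 then had a log2 fold change of 0.37 (SE 0.10) and Cox4i1 joined it below an unadjusted p of 0.05, but the smallest adjusted p over the members was 0.879. The 4 samples that stood apart were also left out in turn. An unadjusted p below 0.05 was then given to 7 members without CON replicate 1 (Atp5l, Cox4i1, Ndufa5, Ndufs5, Sdhd, Uqcrb and Uqcrq), which is 8.64% of them against 4.63% of all genes in that fit. It was given to 3 without CON replicate 2 (Atp5d, Cox6a2 and Ndufb9), 3.7% against 5.36%. It was given to 1 member, Ndufb9, without PND replicate 2 (1.23% against 3.26%) and to 0 without PND replicate 3 (against 2.39%). Leaving out the other samples gave 1 member, Atp5a1, without PND replicate 1 (1.23% against 2.24%) and 0 without CON replicate 3 (against 2.67%). The smallest adjusted p over the members in these fits was 0.525. The cut-off was passed by Atp5l without CON replicate 1 (1.23% of members against 1.9% of all genes) and by Atp5d and Cox6a2 without CON replicate 2 (2.47% against 2.21%).

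The other genes of the pathway were read in the same fit, in which 3.13% of all genes had an unadjusted p below 0.05. At that share, lists of this length hold few such genes or none, so a count of 0 is near the background. Of 48 assembly factors, which help to build the complexes but are not part of them, 0 had an unadjusted p below 0.05, with a median log2 fold change of −0.001. The 2 with the smallest p were Ndufaf4, at 6.96, 8.74 and 6.93 FPKM in PND and 8.38, 1.98 and 2.37 FPKM in CON, and Uqcc1, with a log2 fold change of 0.57 (SE 0.26, adjusted p = 1.0). CON replicate 1 was within the PND range for Ndufaf4. Among 20 tested regulators of mitochondrial biogenesis the count was 0, with a median of 0.008. Gabpa had a log2 fold change of −0.26 (SE 0.15) and Creb1 −0.72 (SE 0.52). Creb1 measured 2.71, 2.42 and 7.85 FPKM in PND and 3.42, 8.53 and 8.28 FPKM in CON, with CON replicate 1 among the low samples, unlike in Ndufaf4.

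For the 18 genes of the tricarboxylic acid cycle and pyruvate dehydrogenase the count was 0, with a median of 0.025, and none was more than 0.28 away from 0 on the log2 scale. Dlst, part of the 2-oxoglutarate dehydrogenase complex, had −0.13 (SE 0.12), and Cs, citrate synthase, 0.25 (SE 0.24). For the 12 carriers, porins and electron transfer proteins including cytochrome c the count was 0, with a median of 0.052. Atpif1, the inhibitor of the ATP synthase, had −0.19 (SE 0.11), and Vdac3, a pore of the outer membrane, −0.15 (SE 0.09).

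The 13 mitochondrially encoded subunits had a median log2 fold change of 0.056. mt-Atp6, the subunit of complex V that forms the proton channel with the ring, was past the cut-off, and the other 12 were not. Over all genes tested 1.33% passed it. It measured 2020, 12600 and 12000 FPKM in PND and 2540, 1540 and 1970 FPKM in CON. PND replicates 2 and 3 were high and PND replicate 1 lay within the controls, and the log2 fold change was 1.77 (SE 0.67, adjusted p = 1.0). mt-Atp8, whose gene overlaps mt-Atp6 on the mitochondrial genome, measured 7010, 9270 and 9940 FPKM in PND and 7410, 7970 and 9320 FPKM in CON. mt-Atp8 did not show the step of mt-Atp6, and the cause of that step was not tested. The nuclear members, by contrast, were low in PND replicate 2 and high in PND replicate 3.

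Markers of other cell types were compared in the same fit, since a change in cell makeup would reach the members too. None of the lists was at 0 in every sample. For 7 astrocyte markers the summed levels were 326 to 445 FPKM in PND and 277 to 568 FPKM in CON, with Gfap at 21.8 ± 3.65 against 13.6 ± 1.10 FPKM and Aqp4 at 24.0 ± 2.14 against 30.8 ± 3.85 FPKM (SD, n = 3 each). The sums were 237 to 300 against 267 to 292 FPKM for 7 oligodendrocyte markers and 26.0 to 39.0 against 23.9 to 42.2 FPKM for 7 microglia markers. They were 33.9 to 44.1 against 30.3 to 31.7 FPKM for 6 endothelial markers, 3.03 to 3.67 against 1.53 to 3.04 FPKM for 8 choroid plexus markers and 214 to 262 against 137 to 345 FPKM for 8 striatal markers. The 6 parvalbumin interneuron markers summed to 71.2 to 72.9 against 69.9 to 77.8 FPKM. Only the endothelial sums did not overlap between the groups. An unadjusted p below 0.05 was given to 6 of the 58 markers tested (10.3%, against 3.13% of all genes): Gfap, Ly6c1, Clic6 and Pde10a (higher in PND) and Aqp4 and P2ry12 (lower), each with an adjusted p of 1.0. The markers were chosen after values of these data were seen, so this share is a description and not a test. The part of these cell types in the members' values was not tested.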

How the data were processed

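The deposited values were FPKM per Ensembl gene for 6 samples. The authors filtered reads with Seqtk, aligned them with HISAT2, counted fragments with StringTie and scaled by TMM before computing FPKM, and genome build, annotation and strand setting for these values are not given in the sources used here. The submitters' processing notes name mm8, mm9 and Bowtie 0.12.2 with no role. Of 21006 identifiers, 20866 matched GENCODE M21 (GRCm38), which gave symbols, exon lengths and GC content of the longest transcript.

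PND was compared with CON by limma 3.58.1 (R 4.3.3; lmFit, eBayes with trend, two-sided) of log2-transformed FPKM after adding 0.1. The 18185 genes whose mean reached 0.1 FPKM were tested, with Benjamini-Hochberg adjustment over all of them. Fold changes on this scale understate those of low genes. Values of p set the difference between groups against the spread between 3 mice a group. In this fit the spread of each gene was drawn toward a trend over all genes tested. No pair of the 15 sample pairs was identical. Near-copies were searched with BLAST on coding sequences (matches of at least 100 bases). Depth was estimated by taking the smallest step of FPKM times exon length as 1 fragment, and 41.6% to 44.8% of low values fell within 0.05 of a whole number, against 10% without steps. The other values were not whole for a reason that was not tested, and fragment numbers are estimates.

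Members and lists were chosen with earlier results of these data known. Genes were named by rule: members past the cut-off or with adjusted p below 0.05; per complex the 3 highest means and 3 smallest p; the isoform families; the core subunits of complexes I and II; and per pathway list the genes past the cut-off and the 2 smallest p. Other genes named (such as Ndufs4, Cyc1, Atp5d, Atp5j, Ndufa11 and the markers) were chosen after their values were seen. Alternatives were other pseudocounts, filters and scalings, corrections for GC content and length, no trend, a replicate block and leaving out each sample. Values of 1 member are not reported by name here.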

Additional observations from a re-analysis of the deposited data

How the results depend on the processing

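The count of all genes past the cut-off was 241. It was 25 when 1 was added before the log and 59 when only genes averaging 1 FPKM or more were tested, settings that remove or damp low genes, and 240 to 402 when 1 sample was left out, the highest without CON replicate 2. The count of members with an unadjusted p below 0.05 was 1. It was 0 when 0.01 was added before the log, when low genes under 1 FPKM were dropped, or without the intensity trend, and 2 with median centring, with the GC correction or with that correction and the replicate block. Over all genes the share was 3.13%, and 2.91%, 2.67%, 3.62%, 3.02%, 4.36% and 3.52% in these settings, against 2.47% for 2 members. Leaving out 1 sample gave 0 to 7 such members (up to 8.64%, against 2.24% to 5.36% of all genes). Members whose groups did not overlap numbered 4 (4.94%, against 7.66% of all genes), 7 with median centring (8.64% against 7.17%), and 9 to 20 when 1 sample was left out (11.1% to 24.7%, against 13.7% to 21.4%), where fewer samples make separation easier. The split of these between higher and lower also moved: 3 and 1 as reported, 2 and 5 with median centring, and 0 and 5 with the length correction. The cause of the other shifts was not tested. The median log2 fold change of the members ranged from −0.04 to 0.11 when 1 sample was left out. An adjusted p below 0.05 was reached by 0 members under every alternative run. Over 39 named members, 698 alternative values held 50 of the other sign, 11 that came below p of 0.05 and 8 that left it, the last all Ndufb9.

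Replicate numbers did not pair the samples. The correlation of deviations between samples of the same number was −0.0487, −0.451 and 0.0274 over 12387 genes, and PND replicate 2 correlated best with CON replicate 1 (0.427). With the replicate block 226 genes passed the cut-off and 1 member, Atp5l in place of Ndufb9, had an unadjusted p below 0.05 (1.23%, against 1.99% of all genes).

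Depth limits the low members: 8 had a mean under 1 FPKM, and Cox4i2, Cox6a2 and Cox7b2 rest on few fragments. With 3 samples a group the interval left 24 of 81 members with bounds beyond 2-fold.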
